A study of Mus musculus with 8 samples.

Results

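The Frizzled genes encode the receptors to which Wnt proteins bind. They were chosen by gene symbol: probe sets annotated with Fzd1 to Fzd10 and with no other symbol, which gave 10 genes and 26 probe sets of 18193 genes and 45101 probe sets. NS5 cells, which the labels call neural stem cells of mouse brain at stage E11.5, were measured on 8 Affymetrix arrays, 2 for each of 4 groups: TGF-beta1, FGF2, and each of these with ethanol (labelled Ethanol and TGF-beta1, and Ethanol and FGF2). All groups had been plated for 24 h with EGF and FGF2 and kept for 4 h without growth factors. The final 48 h were spent with either TGF-beta1 or FGF2, and the ethanol groups also had ethanol at 400 mg/dl. Both factors were dosed at 10 ng/ul as the labels write it, a unit no file here can verify. All arrays come from this single cell line, and no source says whether the 2 arrays of a group were separate cultures, so every p-value below measures the spread between these samples, which may be technical.

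Frizzled proteins are multi-pass membrane receptors with an extracellular cysteine-rich domain that holds the lipid of a Wnt ligand. With the co-receptors Lrp5 or Lrp6 they signal through Dishevelled to stabilise beta-catenin, and without them they act in planar cell polarity and in axon growth. In the embryonic brain Wnt signals bear on progenitor division and on the guidance of axon tracts, the latter a known role of Fzd3. Fzd1, Fzd2 and Fzd7 form a close subfamily, as do Fzd5 and Fzd8, and Fzd3 and Fzd6.

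The upstream sequences of Fzd1 and Fzd7 are shown because, of the members in the promoter table, these had the largest falls in estimate from FGF2 to TGF-beta1 without ethanol, neither past the test. The RefSeq promoter table (GRCm38.p6) held 6 of the 10 members (Fzd1, Fzd4, Fzd5, Fzd7, Fzd9 and Fzd10). Each sequence is the 250 bases before the annotated start, from 5′ to 3′ on the gene's strand. Capitals mark a Smad-binding motif (CAGAC or, on the other strand, GTCTG) or a TCF/LEF core (CTTTG or CAAAG). Fzd1 is read from chr5:4758217-4758466, minus strand, and Fzd7 from chr1:59481897-59482146, plus strand.
Fzd1: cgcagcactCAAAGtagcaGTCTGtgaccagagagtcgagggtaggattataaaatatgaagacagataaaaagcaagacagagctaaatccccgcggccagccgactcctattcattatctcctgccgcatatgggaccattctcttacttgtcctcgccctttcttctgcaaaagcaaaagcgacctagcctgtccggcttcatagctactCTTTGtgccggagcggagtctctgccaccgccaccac
Fzd7: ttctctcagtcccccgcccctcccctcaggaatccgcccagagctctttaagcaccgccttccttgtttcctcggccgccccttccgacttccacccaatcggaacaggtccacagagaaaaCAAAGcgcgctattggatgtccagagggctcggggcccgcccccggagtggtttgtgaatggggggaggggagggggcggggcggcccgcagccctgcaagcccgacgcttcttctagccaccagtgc
The Fzd1 stretch held 1 Smad-binding motif and 2 TCF/LEF cores, and the Fzd7 stretch held 0 and 1. Fzd10, whose signals were also lower in TGF-beta1 but close to the signal filter, held 1 of each in its stretch (not printed). Of 32851 promoter stretches of the same length, 42.2% held the Smad letters and 48.6% the TCF/LEF letters, so both are common. The GC box GGGCGG (or CCGCCC), found in 32.7% of all stretches, stood 6 times in Fzd7, counting both strands and overlapping matches, and 0 times in Fzd1. The GC content was 65.2% for Fzd7 and 51.2% for Fzd1, against a median of 52.4%. A match of letters is a description and not a binding site.

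Each array gave 1 linear signal per probe set, and precision is limited by having 2 arrays a group. Median signals ran from 50.6 to 86.5. Of all 18193 genes, 10916 were above the signal filter, so being above it is common. Of the neural stem and radial glia markers 10 of 11 measured genes were above it, as were 8 of 8 astrocyte and 9 of 12 neuronal markers. Of the mesenchymal markers 5 of 10 were, a lower share than over all genes. Among these 5, Acta2 and Tagln had signals below the filter on most arrays. Only 2 of 7 oligodendrocyte, 1 of 6 microglial, 1 of 5 pluripotency and 0 of 6 endothelial markers were above the filter. No listed marker was at exactly 0 on any array. Fn1 (fibronectin) and Pmepa1, both induced by TGF-beta signalling, checked the growth factor labels. The Fn1 signal was 120 and 139 in FGF2, and in TGF-beta1 it was 3015 and 4109. On the ethanol arrays labelled replicate 2 it was 116 in FGF2 and 8226 in TGF-beta1. On those labelled replicate 1 it went against the label, at 6828 for FGF2 with ethanol and 124 for TGF-beta1 with ethanol, and Pmepa1 did the same (8198 and 1081). These are called the doubted arrays below. They were kept in their labelled groups, and the main results are also given without them.

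Fold changes are on the log2(signal + 23.7) scale, where 23.7 is the pooled 25th percentile, and come from limma with 4 group means over all 8 arrays. The gene level is the probe set with the highest mean. Of the 10 members, 9 passed the filter on low signals (the 40th percentile over genes, equal to a signal of 60.9) and Fzd6 did not. The mean log2 value was 6.33 for Fzd6, just below the filter, and 6.51 for Fzd10, just above it. The family was proposed with the ethanol effect on Fzd3 already known, so the ethanol values of the members are a description and support nothing.

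**Figure D1:**
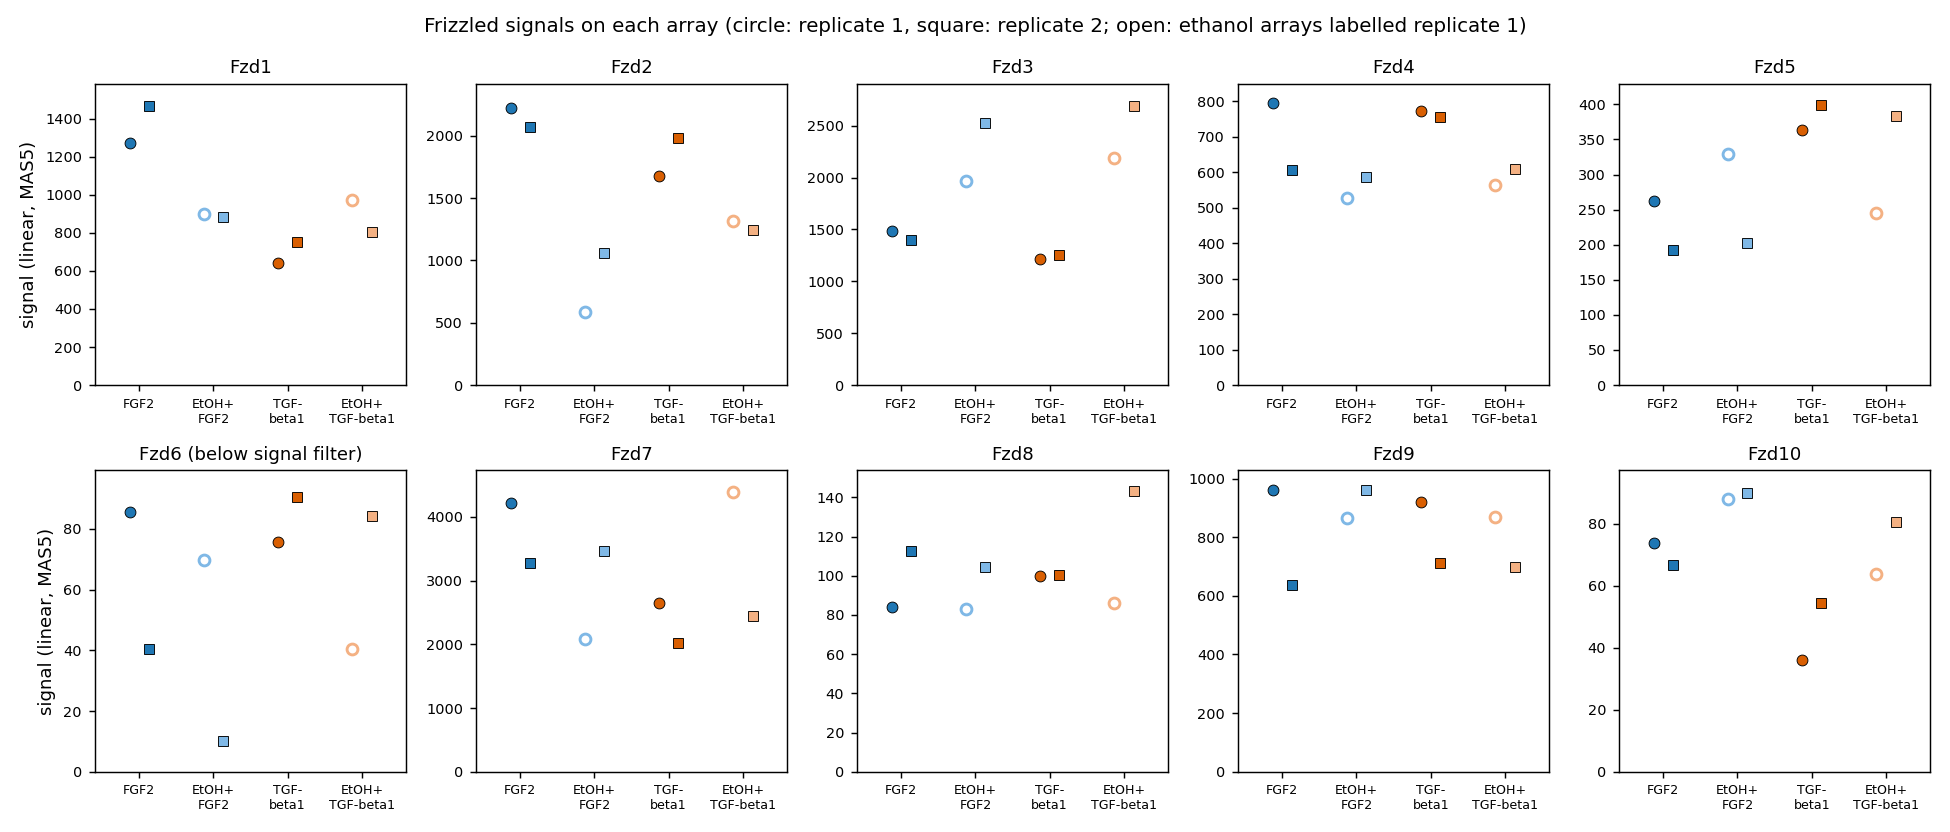
Linear MAS5 signal (vertical axis, from 0, scaled per panel) of the 10 Frizzled genes on each of the 8 arrays, by labelled group (horizontal axis; EtOH is ethanol). Circles are replicate 1, squares replicate 2 and open circles the doubted arrays. Fzd3 is higher and Fzd2 lower on all 4 ethanol arrays, while the doubted arrays trade places for Fzd7 and in part for Fzd5.

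With ethanol, Fzd3 was higher and Fzd2 lower on all 4 ethanol arrays than on all 4 others, which held for no other member tested. Fzd3, a receptor of planar cell polarity and axon tract formation on chromosome 14 (65192441 to 65262463, GRCm38.p6), had signals of 1485 and 1400 in FGF2, and in TGF-beta1 1218 and 1259. With ethanol they were 1972 and 2525 in FGF2, and in TGF-beta1 they were 2194 and 2694 (replicates 1 and 2 in each case). All 4 ethanol arrays stood above all 4 arrays without ethanol. The order of the group means was TGF-beta1 (1238 ± 28.8, SD, n = 2), FGF2 (1443 ± 60.5), Ethanol and FGF2 (2249 ± 391) and Ethanol and TGF-beta1 (2444 ± 354), and only the 2 ethanol groups overlapped among neighbours.

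The Fzd3 log2 fold change with ethanol, averaged over the growth factors, was 0.79 ± 0.16 (SE), or 1.73-fold. By limma it passed the threshold over all 10916 genes (adjusted p = 0.0429), the value that led to this family. The call was lost with median centring (0.66 ± 0.31, adjusted p = 0.69), no trend (adjusted p = 0.0837), the replicate block (adjusted p = 0.0727) and no filter (adjusted p = 0.0501), all by limma. It was 1 of 9 members past the threshold, where 1.99% of all genes passed, 0.183% as rises and 1.8% as falls. It was 0.62 ± 0.23 within FGF2 and 0.96 ± 0.23 within TGF-beta1, and neither passed (adjusted p = 0.499 and 0.113 by limma). These were 0.80 ± 0.23 and 1.11 ± 0.23 without the doubted arrays. Within FGF2 0% of all genes passed (906 at an unadjusted p under 0.05), and within TGF-beta1 1.19% did (0.0733% as rises and 1.12% as falls). Without the doubted arrays the average was larger, 0.95 ± 0.16, but its adjusted p was 0.0922 by limma with 2 residual degrees of freedom, and no gene of the whole table passed (1150 at an unadjusted p under 0.05). Leaving out any other single array than the doubted Ethanol and FGF2 replicate 1 also ended the call. The adjusted p was then 0.123 without FGF2 replicate 1, 0.106 without FGF2 replicate 2, 0.227 without TGF-beta1 replicate 1, 0.163 without TGF-beta1 replicate 2, 0.0829 without Ethanol and FGF2 replicate 2, 0.0975 without Ethanol and TGF-beta1 replicate 1 and 0.203 without Ethanol and TGF-beta1 replicate 2, with estimates from 0.70 to 0.86.

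The 6 Fzd3 probe sets did not show this difference to the same extent. All 6 had a positive log2 fold change in the ethanol average, but only 2 had signals that did not overlap between the arrays with and without ethanol. One was 1434788_at, which stands for the gene above. The other was 1438101_at, with signals of 254 and 184 in FGF2, 227 and 104 in TGF-beta1, 318 and 404 in Ethanol and FGF2, and 323 and 537 in Ethanol and TGF-beta1. Its log2 fold change was 0.98 ± 0.29.
Probe set 1449730_s_at had 568 and 616 in FGF2, 649 and 638 in TGF-beta1, 698 and 724 in Ethanol and FGF2, and 642 and 630 in Ethanol and TGF-beta1, and its log2 fold change was 0.12 ± 0.17. The groups overlapped on this probe set, as they did on 1420087_at (0.18 ± 0.19), 1421157_at (0.27 ± 0.24) and 1450135_at (0.21 ± 0.21). With each probe set fitted on its own, 0 of the 19 Frizzled probe sets above the filter passed in the average by limma (1434788_at had an adjusted p of 0.0601), where 1.44% of all probe sets passed. With the mean of its probe sets Fzd3 had 0.43 ± 0.14 (adjusted p = 0.292 by limma).

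**Figure D2:**
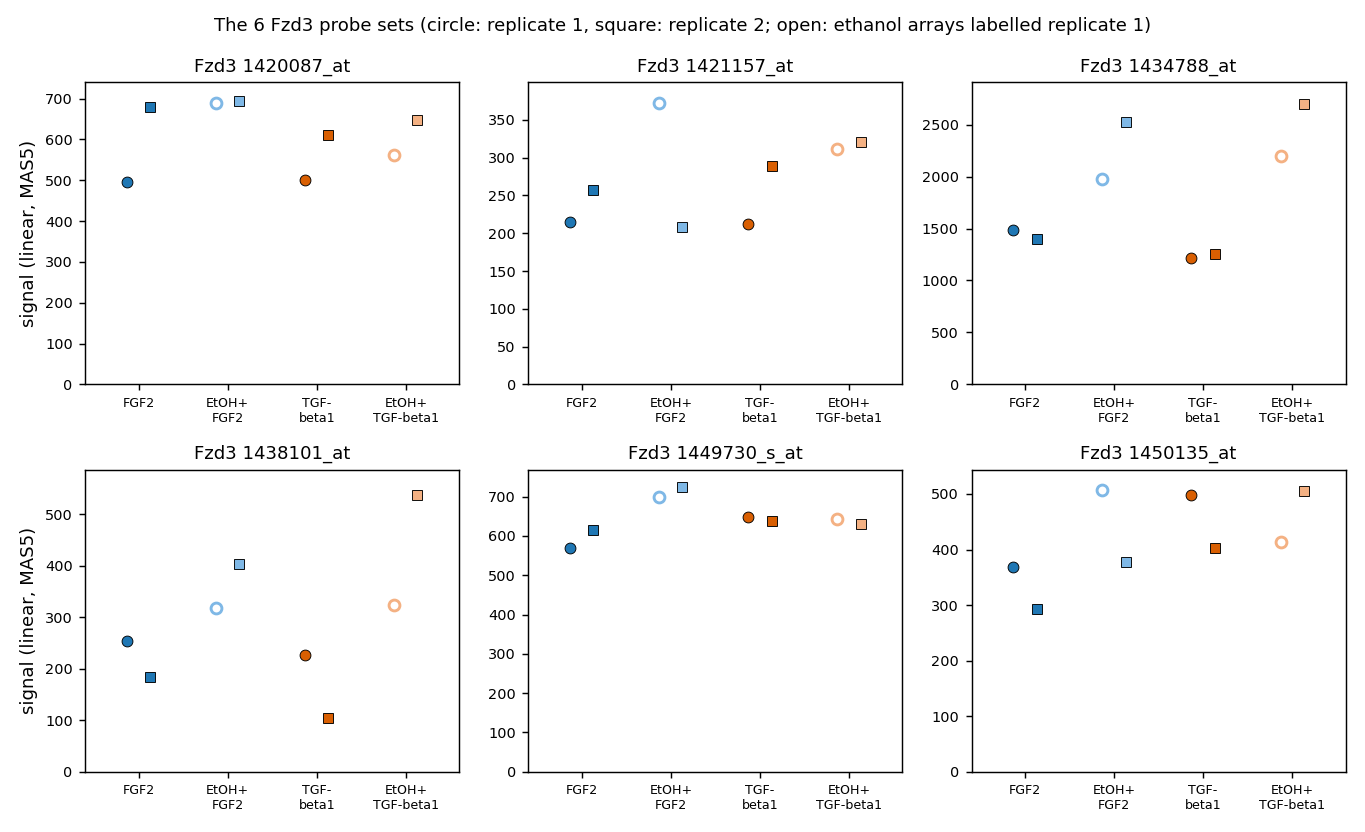
Linear MAS5 signal (vertical axis, from 0, scaled per panel) of the 6 Fzd3 probe sets on each array, by labelled group (EtOH is ethanol). Circles are replicate 1, squares replicate 2 and open circles the doubted arrays. On 1434788_at and 1438101_at all 4 ethanol arrays are above the 4 others, and on the other 4 probe sets they overlap.

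Fzd2 encodes a receptor used in both beta-catenin dependent and independent Wnt signalling and lies on chromosome 11 (102604431 to 102608058). Its signal was 2222 and 2068 in FGF2, and in TGF-beta1 it was 1679 and 1984. It was 583 and 1057 in Ethanol and FGF2 and 1317 and 1241 in Ethanol and TGF-beta1. All 4 ethanol arrays stood below all 4 others, and the lowest was the doubted array labelled Ethanol and FGF2 replicate 1. The group means ran from Ethanol and FGF2 (820 ± 335, SD, n = 2) over Ethanol and TGF-beta1 (1279 ± 53.5) and TGF-beta1 (1831 ± 216) to FGF2 (2145 ± 109), with no overlap of arrays between neighbours.

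The Fzd2 log2 fold change with ethanol was -0.96 ± 0.20 in the average, -1.42 ± 0.29 within FGF2 and -0.51 ± 0.29 within TGF-beta1 (SE). By limma none of these passed (adjusted p = 0.0541, 0.115 and 0.631). Without the doubted arrays the average was -0.78 ± 0.17 (adjusted p = 0.186 by limma), with -1.004 ± 0.24 within FGF2 and -0.55 ± 0.24 within TGF-beta1. The average was -1.17 ± 0.15 without Ethanol and FGF2 replicate 2, where the doubted array, the lowest for Fzd2, stands alone for its group. Apart from the fits with single arrays left out, the average passed in 1 of 10 settings, with a constant of 100 (-0.91 ± 0.19, adjusted p = 0.0477 by limma). Fzd2 thus lies near the threshold. Its other probe sets did not share the difference. Their log2 fold changes were -0.06 ± 0.31 for 1418532_at (signals from 42.3 to 181) and -0.39 ± 0.33 for 1418533_s_at (53.4 to 184), and the mean over the Fzd2 probe sets was -0.47 ± 0.20. Fzd2 and Fzd3 were the only 2 of 9 members whose ethanol and other arrays did not overlap, where 7.43% of all genes tested did not (2.98% higher and 4.45% lower). Within each growth factor, 5 of 9 members (55.6%) did not overlap: Fzd3 and Fzd10 were higher and Fzd2 and Fzd4 lower in both, and Fzd1 was lower in FGF2 and higher in TGF-beta1. With 2 arrays a group such separation was common over all genes, at 32% within FGF2 (19.3% higher and 12.8% lower) and 47.9% within TGF-beta1 (22.2% higher and 25.7% lower).

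The G2/M genes moved with ethanol beside these members, and neuronal markers did so in part. Of 17 measured G2/M genes 16 fell by limma in the ethanol average, where 1.8% of all genes fell. Their summed signal ran from 13521 to 45162 without ethanol and from 2266 to 4995 with it. The summed signal of 12 neuronal markers ran from 8727 to 12513 in FGF2, 6033 to 7779 in TGF-beta1, 10428 to 13452 in Ethanol and FGF2, and 10410 to 15629 in Ethanol and TGF-beta1. Of the neuronal markers 9 were tested, and Rbfox3, Stmn2 and Gap43 were below the filter. In the average 2 rose by limma (Celf4, adjusted p = 0.013, and Dlx2, adjusted p = 0.0432), where 0.183% of all genes rose. Within FGF2 their sums overlapped and 0 passed, where 0% of all genes passed. Within TGF-beta1 their sums did not overlap and all 9 tested were above 0. By limma 2 rose there (Celf4, adjusted p = 0.0403, and Dcx, adjusted p = 0.0488), where 0.0733% of all genes rose. Map2 made up most of each neuronal sum, at 5331 to 12179. The median log2 fold change of the neuronal markers in the average was 0.91 (8 of 9 above 0). Without the doubted arrays it was 1.098 (8 tested, 8 above 0). No stem and radial glia, astrocyte, oligodendrocyte or mesenchymal marker passed in the average. The median log2 fold changes of these lists were 0.24, 0.0013, 0.53 (2 tested) and 0.80 (5 tested, 4 above 0). Without the doubted arrays they were 0.27, 0.0092, 0.40 (2 tested) and 1.07 (4 tested, 3 above 0). Among the astrocyte markers (4 of 8 above 0) Gfap had the largest value, 1.87 ± 0.85. Its doubted arrays gave 6058 (Ethanol and FGF2) and 668 (Ethanol and TGF-beta1), against 1281 and 8284 on replicate 2. Without the doubted arrays no gene passed, the 17 G2/M genes were all below 0 (median -2.92), and Celf4 had 2.72 ± 0.57 and Dlx2 0.86 ± 0.24. Their part in the values of Fzd2 and Fzd3 was not tested, and in bulk RNA fewer cells of a type and less RNA per cell cannot be told apart. The genes most like Fzd3 over the 8 arrays were Insm1 (a zinc finger factor of neuronal progenitors, Pearson r = 0.987), Sorcs2 (a sortilin-family receptor, 0.981) and Srgap3 (a protein of the Slit-Robo pathway, 0.969), of 10915 genes compared. Those most like Fzd2, the member with the widest spread of group means, were Fyttd1 (an mRNA export adaptor, 0.969), 4933432K03Rik (0.967) and Anp32a (a nuclear phosphoprotein, 0.963). These are descriptions over arrays that share the same 4 groups.

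The other 7 tested members had smaller ethanol values, none past the threshold by limma. Fzd4, the receptor for Norrin in retinal vessels, had signals of 796 and 608 in FGF2, 773 and 757 in TGF-beta1, 527 and 586 in Ethanol and FGF2, and 563 and 608 in Ethanol and TGF-beta1. These groups met at 608 and its average log2 fold change was -0.34 ± 0.17. The average was 0.37 ± 0.28 for Fzd10, -0.13 ± 0.16 for Fzd1, 0.08 ± 0.20 for Fzd9, -0.05 ± 0.25 for Fzd5, 0.04 ± 0.27 for Fzd8 and 0.02 ± 0.25 for Fzd7. With the mean over probe sets the value was 0.43 ± 0.25 for Fzd5, -0.41 ± 0.18 for Fzd1 and -0.06 ± 0.22 for Fzd4. These sizes, and for Fzd5 the sign, thus rest on which probe sets stand for the gene. Each of these means takes in a probe set below the filter. Its signals were 1.83 to 50.6 for Fzd5, 8.88 to 91.2 for Fzd1 and 0.674 to 87.5 for Fzd4. Without the doubted arrays the ethanol average was 0.26 ± 0.33 for Fzd8, 0.04 ± 0.25 for Fzd9 and -0.01 ± 0.20 for Fzd7, each within its error of 0. The averages of Fzd1, Fzd4, Fzd5 and Fzd10 without the doubted arrays are not given here. The median over the 9 members was 0.02, beside 0.03 over all genes.

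The next comparison asked how the Frizzled genes differed between TGF-beta1 and FGF2 in the arrays without ethanol, none of which is doubted. Fzd1 and Fzd7 had lower signals in TGF-beta1 and Fzd5 higher, but no member passed the test. Fzd1, a receptor of beta-catenin signalling on chromosome 5 (4753839 to 4758216), had 1274 and 1468 in FGF2, and in TGF-beta1 642 and 750.5. Its log2 fold change was -0.95 ± 0.23 (SE), or 1.94-fold lower, with an adjusted p of 0.98 by limma. Fzd7, a receptor linked to stem cell maintenance on chromosome 1 (59482147 to 59486955), had 4219 and 3285 in FGF2, and in TGF-beta1 2645 and 2020 (-0.68 ± 0.35, adjusted p = 0.98 by limma). Fzd5, a receptor required in eye and placental vessel development, on chromosome 1 (64730558 to 64737750), had 262 and 193 in FGF2, and in TGF-beta1 364 and 399 (0.70 ± 0.35, adjusted p = 0.98 by limma).

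In this comparison limma passed 0% of the 10916 genes (0 genes, 542 at an unadjusted p under 0.05), so that Fn1 did not pass either (4.54 ± 1.93, adjusted p = 0.98), and 0 of 9 members (1, Fzd1, at an unadjusted p under 0.05). The doubted arrays enter the spread that this fit shares. With only the 4 arrays without ethanol, an alternative chosen after seeing the data, 5 genes passed (779 at an unadjusted p under 0.05) but 0 members, and the adjusted p by limma was 0.39 for Fzd1, 0.627 for Fzd7 and 0.701 for Fzd5. The signals of the growth factors did not overlap for 6 of 9 members (66.7%), 5 lower and 1 higher in TGF-beta1, where 36.2% of all genes tested did not overlap (20.4% higher and 15.8% lower). The other members without overlap were Fzd2 (-0.23 ± 0.29), Fzd3 (-0.22 ± 0.23) and Fzd10 (-0.46 ± 0.39). Fzd4 (0.13 ± 0.24), Fzd8 (0.03 ± 0.39) and Fzd9 (0.05 ± 0.28) overlapped. The median was -0.22 over the 9 members and 0.02 over all genes. For Fzd2 (0.30) and Fzd4 (-0.24) the sign turned with the mean over probe sets, which for Fzd4 takes in a probe set below the filter (0.674 to 87.5).

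**Figure D3:**
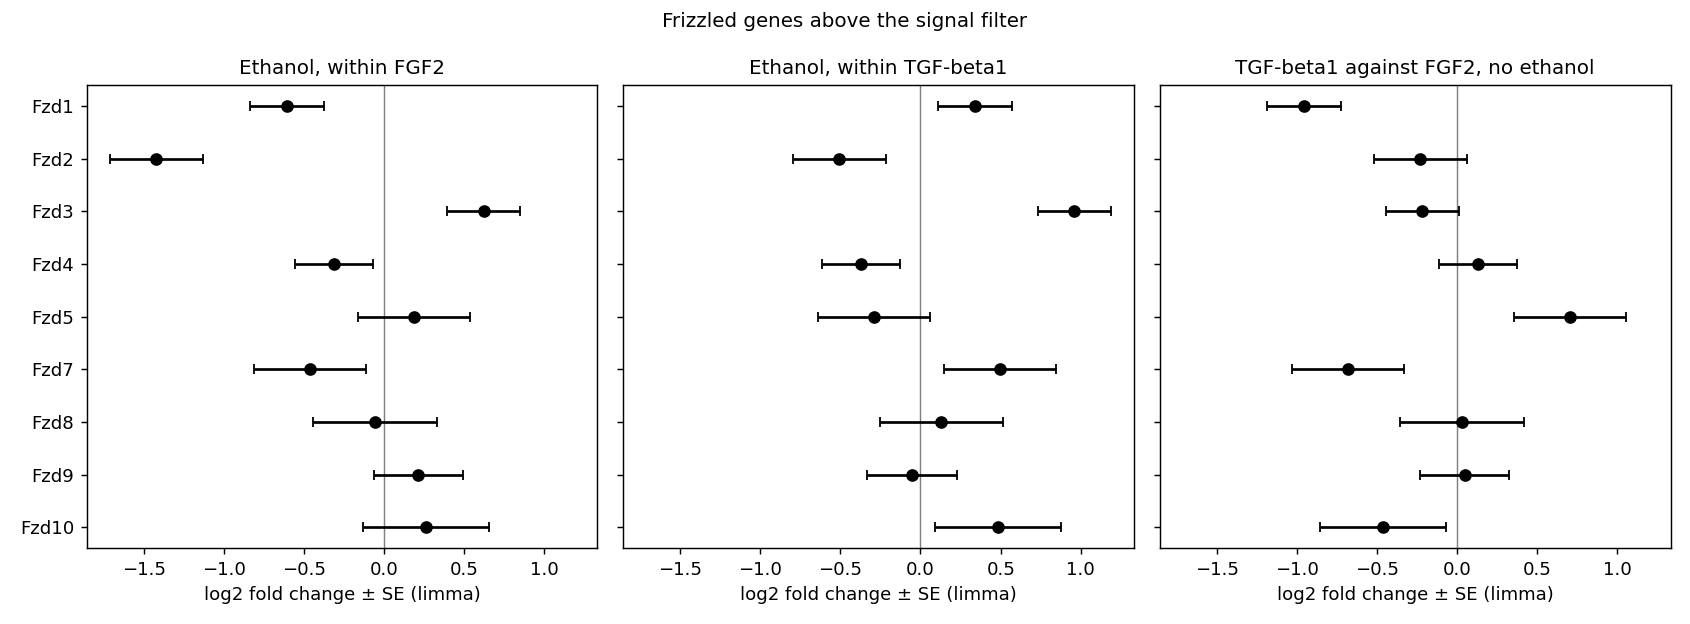
Log2 fold change (horizontal axis, limma; bars are SE) of the 9 Frizzled genes above the signal filter, for ethanol within FGF2, ethanol within TGF-beta1, and TGF-beta1 against FGF2 without ethanol. Each comparison has 2 arrays a group. Fzd3 is above and Fzd2 below 0 in both ethanol panels, and Fzd1 is below 0 within FGF2 and above 0 within TGF-beta1.

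On the ethanol arrays Fzd7 went with the Fn1 signal rather than with the label, and Fzd5 did so in part. The Fzd7 signal was 2089 on the doubted array labelled Ethanol and FGF2 replicate 1 and 3472 on replicate 2. It was 4388 on the doubted array labelled Ethanol and TGF-beta1 replicate 1 and 2439 on replicate 2. The value on each doubted array thus lay in or beyond the range of the other growth factor without ethanol. For Fzd5 the arrays of Ethanol and FGF2 gave 330 (doubted) and 203, and those of Ethanol and TGF-beta1 gave 245 (doubted) and 383. The value of 245 lay in the FGF2 range, and 330 lay between the ranges of the growth factors. As labelled, Fzd7 had a log2 fold change of 0.28 ± 0.35 in TGF-beta1 against FGF2 with ethanol, and -0.51 ± 0.33 without the doubted arrays. Fzd5 had 0.22 ± 0.35, and 0.84 ± 0.43 without them. In this comparison limma passed 0% of genes as labelled (288 at an unadjusted p under 0.05) and 0 of 9 members, and without the doubted arrays 0.0183% of genes (2 genes, 553 at an unadjusted p under 0.05) and 0 members. The adjusted p of Fzd7 and Fzd5 by limma was 0.983 as labelled and 1.00 without them.

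**Figure D4:**
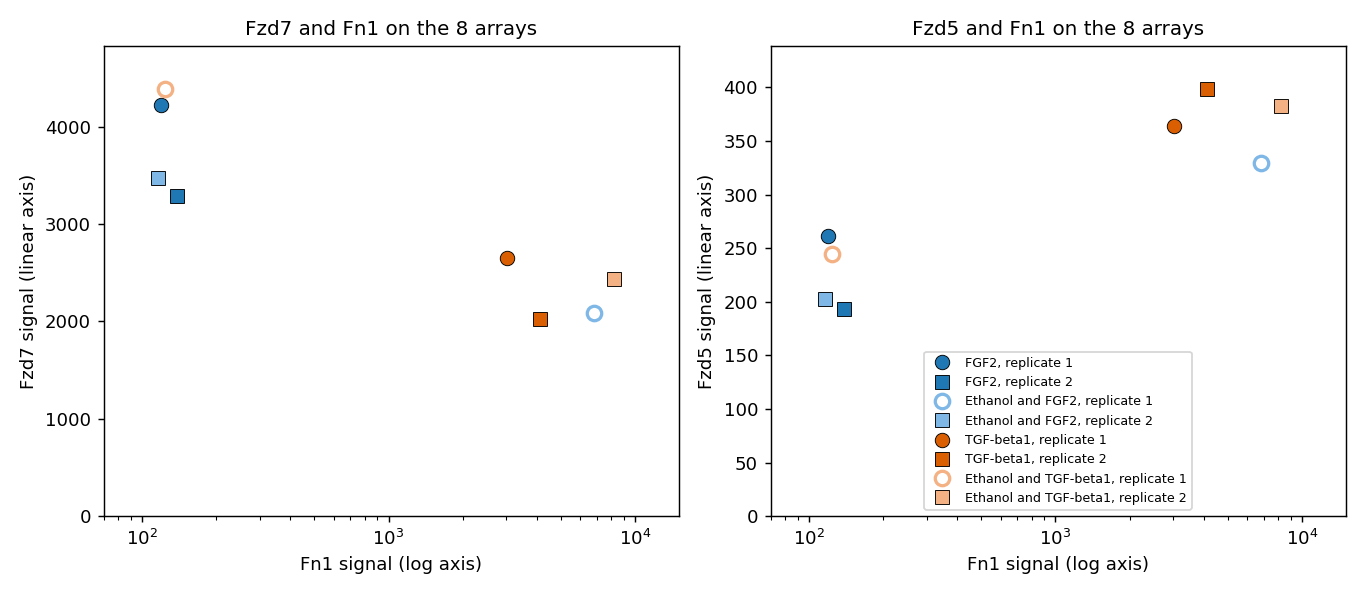
Signal of Fzd7 (left) and Fzd5 (right; vertical axes linear, from 0) against the Fn1 signal (horizontal log axis) on the 8 arrays, coloured by labelled group. Open circles are the doubted arrays. The doubted array labelled Ethanol and FGF2 has Fn1 at 6828 and Fzd7 at 2089, and the doubted array labelled Ethanol and TGF-beta1 has Fn1 at 124 and Fzd7 at 4388.

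Fzd1 did not follow this pattern. Its ethanol arrays lay between the growth factors whatever their label, at 900 and 884 in Ethanol and FGF2 and 974 and 806 in Ethanol and TGF-beta1. The ethanol value was -0.60 ± 0.23 within FGF2 and 0.34 ± 0.23 within TGF-beta1, and their difference was 0.95 ± 0.33 (adjusted p = 0.831 by limma). Without the doubted arrays the difference was 0.83 ± 0.38 (adjusted p = 1.00 by limma). The differences for Fzd7 and Fzd2 were 0.96 ± 0.49 and 0.92 ± 0.41, neither past the test, and limma passed 0% of genes in this comparison (484 at an unadjusted p under 0.05) and 0 of 9 members. Fzd7 had 0.18 ± 0.41 without the doubted arrays, and Fzd2 had 0.46 ± 0.34.

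Fzd9, a receptor of the developing hippocampus on chromosome 5, had signals of 963 and 636 in FGF2, 918 and 713 in TGF-beta1, 866 and 961 in Ethanol and FGF2, and 869 and 697 in Ethanol and TGF-beta1. All groups overlapped for this gene. Fzd10 on chromosome 5 had low signals, 36 and 54.3 in TGF-beta1 and 63.7 to 89.8 on the other 3 groups' arrays. Fzd8 on chromosome 18, the closest relative of Fzd5, had 82.8 to 143, and its other probe set 23.6 to 97.1. The sizes of Fzd8 and Fzd10 fold changes depend on the added constant of 23.7. The Fzd10 signals in TGF-beta1 came nearest to it, while the tested Fzd8 probe set stayed at 82.8 or above. Fzd6, the closest relative of Fzd3, had signals of 10.1 to 90.5 on its highest probe set and 2.73 to 78.1 and 3.53 to 69.2 on the others, and was not tested at the gene level. The 36 pairs of tested members had Pearson r over the 8 arrays from -0.74 (Fzd5 and Fzd7) to 0.77 (Fzd2 and Fzd4), with 17 above 0, so the family did not vary as a block.

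Other Wnt pathway genes were taken from 7 lists of 110 genes. The array held 19 of 20 secreted inhibitors, 15 of 16 beta-catenin transcription factors and targets, 15 of 16 planar cell polarity genes and all genes of the other lists. Of the 110 listed genes, 68 were on the array and passed the signal filter. By limma 0 rose and 1 fell in the ethanol average (Ccnd1), where 1.99% of all genes passed, and 0 passed in the other 5 comparisons. Of the ligands, 6 of 20 were above the filter and 0 passed. Wnt5b, a ligand of beta-catenin independent signalling, had 1.02 ± 0.33 with ethanol (adjusted p = 0.247 by limma), and Wnt7a, a ligand of cortical progenitors, -0.76 ± 0.38 in TGF-beta1 against FGF2. Of 10 co-receptors 8 were tested and 0 passed, with Lrp5 at 0.99 ± 0.40 for the growth factors and Reck, a partner of Wnt7 reception, at 0.54 ± 0.23 for ethanol.

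Of 20 secreted inhibitors 7 were tested and 0 passed. Sostdc1, which binds Lrp co-receptors, had -1.46 ± 0.40 for the growth factors without ethanol, and Apcdd1, a membrane inhibitor, had 0.32 ± 0.18 for ethanol. Of 10 genes of Frizzled turnover 5 were tested and 0 passed. Znrf3, a ubiquitin ligase that removes Frizzled from the membrane, had 4285 and 6380 in FGF2, 2318 and 2510 in TGF-beta1, 1768 and 4197 in Ethanol and FGF2, and 5127 and 2954 in Ethanol and TGF-beta1. Its log2 fold change in TGF-beta1 against FGF2 was -1.11 ± 0.42 (adjusted p = 0.98 by limma), and both doubted arrays again stood with the other growth factor. Lgr4, an R-spondin receptor, had 0.63 ± 0.21 for ethanol (adjusted p = 0.27 by limma).

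Of 18 cytoplasmic transducers 16 were tested and 0 passed. Gsk3a, a kinase that marks beta-catenin for decay, had 1.15 ± 0.65 for the growth factors and 0.67 ± 0.46 for ethanol. Both values lean on 1 low array, as its signals were 417 and 59.6 in FGF2 and 345 to 555 on all other arrays. Of 16 beta-catenin transcription factors and targets 13 were tested and 1 passed. Ccnd1, the cyclin D1 gene, had 2849 and 1830 in FGF2, 2487 and 1877 in TGF-beta1, 1330 and 635 in Ethanol and FGF2, and 586 and 815 in Ethanol and TGF-beta1. It fell by 1.45 ± 0.27 on the log2 scale with ethanol (adjusted p = 0.0272 by limma), and without the doubted arrays, where no gene passed, by 1.596 ± 0.24 (adjusted p = 0.0822 by limma). Myc had -0.91 ± 0.48 for the growth factors.

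Axin2, a feedback target of beta-catenin chosen after its values were seen, had 3490 and 3661 in FGF2, 2107 and 2721 in TGF-beta1, 2136 and 3220 in Ethanol and FGF2, and 3745 and 2114 in Ethanol and TGF-beta1. The doubted arrays traded places on it as on Fzd7. Its log2 fold change was -0.57 ± 0.32 in TGF-beta1 against FGF2 and -0.11 ± 0.23 with ethanol, neither past the test. Of 16 planar cell polarity genes 13 were tested and 0 passed. Celsr3, a cadherin that acts with Fzd3 in axon tracts, had -1.69 ± 0.55 for the growth factors, at signals of 2.07 and 23.4 in TGF-beta1 that lie under the added constant. Prickle2, a core polarity protein, had 1.28 ± 0.36 with ethanol (adjusted p = 0.161 by limma). Without the doubted arrays the ethanol values were 1.40 ± 0.35 for Prickle2, 1.04 ± 0.34 for Wnt5b, 0.87 ± 0.20 for Lgr4, 0.67 ± 0.29 for Reck, 0.42 ± 0.22 for Apcdd1, 0.74 ± 0.64 for Gsk3a and -0.16 ± 0.18 for Axin2, of which none passed.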

How the data were processed

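RNA of 8 samples was measured on Affymetrix mouse arrays. The authors deposited 1 linear signal intensity per probe set, made with MAS5 and GCOS per the submitters' processing notes, with versions not given in the sources used here. The 2% trimmed mean was 500.003 on every array, so arrays had been scaled to 1 target, and no further normalization was applied. There were no detection calls. Probe sets with exactly 1 symbol that are not Affymetrix controls (34945 of 45101) gave 18193 genes, named by an older platform annotation; all 10 members matched RefSeq (GRCm38.p6) by symbol, with the same Entrez identifier in both tables. Genes were fitted with limma 3.58.1 in R 4.3.3 (4 residual and 4.93 prior degrees of freedom, with a trend), two-sided, with Benjamini-Hochberg adjustment over 10916 genes in each of 6 comparisons and a threshold of 0.05. The procedure was tested on simulated data. All 10 members are named; other Wnt genes are those past the threshold and the largest of each list in the growth factor comparison without ethanol and in the ethanol average, with Axin2 added after its values were seen. Members and lists were chosen with earlier results of these data known. Replicate numbers were not used to pair the arrays in the main fit. Over 6 pairs of groups, deviations correlated from -0.44 to 0.47, 3 below 0 and 1 over 0.1. The highest was for FGF2 and TGF-beta1, the groups with no doubted array. Their median signals were 50.7 and 50.6 on the replicate 1 arrays and 86.5 and 80.7 on the replicate 2 arrays. Whether arrays of the same number were handled together was not tested.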

Additional observations from a re-analysis of the deposited data

Results flagged for a closer look

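The ethanol effect on Fzd1 had opposite signs in the 2 growth factors: both ethanol arrays lay below both FGF2 arrays (900 and 884 against 1274 and 1468), and both lay above both TGF-beta1 arrays (974 and 806 against 642 and 750.5). The difference of the 2 effects was 0.95 ± 0.33 on the log2 scale (adjusted p = 0.831 by limma), so it did not pass the test over all genes. 1 array of each ethanol group is doubted. The part of the doubted arrays was not tested beyond the value without them, 0.83 ± 0.38.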

How the results depend on the processing

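The count of Frizzled genes past the threshold stayed at 0 in 5 of 6 comparisons under all alternatives run. In the ethanol average it was 1 (Fzd3), and 2 with a constant of 100 (Fzd2 and Fzd3). It was 0 with no filter, with median centring, with the mean over probe sets, with no trend, with both doubted arrays left out, with each probe set on its own and with the replicate block. With single arrays left out, which leaves 1 array in a group, either no member passed, or Fzd3 alone or Fzd2 alone did. With the replicate number as a block the adjusted p by limma was 0.0727 for Fzd3 and 0.0877 for Fzd2; the block changed no other call of a member. Arrays of 1 number deviated together in FGF2 and TGF-beta1 (r = 0.47), the pair of groups with no doubted array. In the other 5 pairs of groups r ran from -0.44 to 0.046. The lowest was for Ethanol and FGF2 against Ethanol and TGF-beta1, each of which holds a doubted array. Fzd3 kept a positive value in 10 of 10 settings (0.43 to 0.95) and passed in 4, and Fzd2 a negative one in 10 of 10 (-1.09 to -0.47). Median centring moved the ethanol average of all genes from 0.03 to -0.10. Without ethanol, the mean over probe sets reversed TGF-beta1 against FGF2 for Fzd2 (0.30) and Fzd4 (-0.24). With ethanol it reversed Fzd1 (0.17), Fzd2 (-0.10), Fzd4 (-0.39) and Fzd7 (-0.22), and in the difference of ethanol effects Fzd2 (-0.40) and Fzd7 (-0.042). Leaving out the doubted arrays reversed Fzd7 with ethanol (-0.51) and Fzd5 in the difference (0.14), and turned the sign of values near 0 for ethanol: Fzd5 within FGF2 (0.19 to -0.13), Fzd8 within FGF2 (-0.05 to 0.079), Fzd5 within TGF-beta1 (-0.29 to 0.0059) and Fzd7 in the average (0.02 to -0.012). For ethanol, the mean over probe sets also turned Fzd5 (0.43) and Fzd8 (-0.043) in the average, Fzd4 (0.022) and Fzd7 (0.16) within FGF2, and Fzd5 (0.42) and Fzd8 (-0.035) within TGF-beta1. Median centring turned Fzd7 (-0.11), Fzd8 (-0.092) and Fzd9 (-0.050) in the average and Fzd8 within TGF-beta1 (-0.024), and quantile normalization turned Fzd8 in the average (-0.057). With each array left out, growth factor values that crossed 0 ran, without ethanol, from -0.056 to 0.32 (Fzd4), -0.14 to 0.20 (Fzd8) and -0.24 to 0.34 (Fzd9). With ethanol they ran from -0.14 to 0.12 (Fzd1), -0.054 to 0.30 (Fzd3), -0.00037 to 0.15 (Fzd4), -0.10 to 0.54 (Fzd5), -0.14 to 0.70 (Fzd7) and -0.087 to 0.52 (Fzd8). In the difference they ran from -0.25 to 0.13 (Fzd4), -0.12 to 0.49 (Fzd8) and -0.56 to 0.021 (Fzd9). In the ethanol average they ran from -0.21 to 0.11 (Fzd5), -0.19 to 0.23 (Fzd7), -0.11 to 0.19 (Fzd8) and -0.065 to 0.23 (Fzd9). The cause of these changes was not tested. Low signals limit Fzd6, Fzd8 and Fzd10, and those of Fzd6 and Fzd10 came nearest to the constant of 23.7. They also limit the means over probe sets, which take in probe sets below the filter. These had signals of 8.88 to 91.2 for Fzd1, 0.674 to 87.5 for Fzd4 and 1.83 to 50.6 for Fzd5. For Fzd7 they were 1.39 to 96.0 and for Fzd10 0.765 to 38.1.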
